A study of Homo sapiens with 6 samples.

Results

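Systemic iron balance depends on a small set of regulators and iron oxidases, and 10 of these genes were followed here in human pancreatic cancer xenografts treated with an iron chelator. They were HAMP, HFE, TFR2, BMP6, TMPRSS6, TF, CP, HEPH, CYBRD1 and LCN2. Every array probe carrying one of these symbols was kept, which gave 14 probes of the 50599 on the array and 10 genes of the 34423 named there. HFE, CP, CYBRD1 and TMPRSS6 had 2 probes each, and the other 6 genes had 1.

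BxPC-3 cells, from a human pancreatic adenocarcinoma, had been grown under the skin of female BALB/c (nu/nu) mice aged 8 to 10 weeks. Control mice received the vehicle and DFX mice received 200 mg/kg deferasirox (DFX), an oral iron chelator, by gavage for 21 days, starting at a tumor volume of 150 mm3. RNA from 3 tumors per group, picked at random by the authors from groups of 5 mice, was hybridized, each on its own array, to human 60-mer probes in one color. All tumors derived from 1 cell line in hosts without functional T cells, and the extracts may include host (mouse) transcripts. The arrays lay on 1 slide with the Control tumors in row 1 and the DFX tumors in row 2, so slide row and treatment cannot be told apart.

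HAMP encodes hepcidin, the peptide hormone by which the liver closes the iron exporter ferroportin in gut, macrophages and other cells. Hepcidin transcription is raised by BMP6 through SMAD proteins and by IL-6 through STAT3, is tuned by HFE and TFR2 as sensors of iron-loaded transferrin, and is restrained by the protease TMPRSS6. Transferrin (TF) carries ferric iron in plasma, so iron leaving a cell has to be oxidized, by ceruloplasmin (CP) or hephaestin (HEPH), and dietary iron has to be reduced before uptake, by the duodenal reductase CYBRD1, while LCN2 binds iron held by siderophores.

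The results below are readings of single 60-base probes, so the probes taken to lie in coding sequence are shown for 5 of the genes, as the strand of the transcript from 5′ to 3′. Positions follow the array design's own annotation, built on hg19. The LCN2 probe lies at chr9:130914244-130914303 (+), the HEPH probe at chrX:65486328-65486387 (+), the second CYBRD1 probe at chr2:172411114-172411173 (+), the TF probe at chr3:133495990-133496049 (+) and the TFR2 probe at chr7:100225205-100225264 (-). Each of these sequences has at least 1 reading frame without a stop codon.
LCN2 probe: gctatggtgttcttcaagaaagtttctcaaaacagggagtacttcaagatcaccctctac
HEPH probe: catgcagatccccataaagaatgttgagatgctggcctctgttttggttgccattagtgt
CYBRD1 probe: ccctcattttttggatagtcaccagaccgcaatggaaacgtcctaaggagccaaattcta
TF probe: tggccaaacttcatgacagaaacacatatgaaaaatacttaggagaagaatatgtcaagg
TFR2 probe: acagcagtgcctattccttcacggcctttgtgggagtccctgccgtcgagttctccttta

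HAMP is the gene on which the BMP and IL-6 signals meet, and its transcript and the genes of both signals are measured below, so the 250 bases before its RefSeq start are shown, at chr19:35282278-35282527 (+) on GRCh38.p14. Capitals mark the letters of both motifs searched on both strands, GGCGCC, the core of the BMP-responsive element, and TTCNNNGAA, bound by STAT factors.
HAMP upstream: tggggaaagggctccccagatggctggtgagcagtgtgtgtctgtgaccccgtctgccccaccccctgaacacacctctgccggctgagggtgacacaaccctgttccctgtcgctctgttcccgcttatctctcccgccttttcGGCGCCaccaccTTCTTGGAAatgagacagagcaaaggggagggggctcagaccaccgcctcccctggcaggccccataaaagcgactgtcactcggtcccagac
In HAMP, GGCGCC began 105 bases and TTCNNNGAA 93 bases before the start, and the motifs did not overlap. GGCGCC was found in 16.4% of the 35116 windows of this length in the RefSeq table and TTCNNNGAA in 6.57%. RefSeq windows matched 7 of the 10 genes (11 windows), and beside HAMP only TF held a motif, GGCGCC. TFR2, CP and TMPRSS6 had no entry. These matches describe letters and not binding.

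Intensities below are log2 values after quantile normalization of the background-subtracted signal, called normalized log2 intensity, and a difference is DFX minus Control on that scale. Levels of different probes are not compared, because probes differ in how well they hybridize. A probe was tested where its background p-value was under 0.05 on all 6 arrays, and "well above background" is the scanner's own flag. Of the 14 probes, 9 (from 7 genes) were well above background on all 6 arrays, 3 on some arrays and 2 on none. The filter kept 12 probes, at least 1 for each of the 10 genes.

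HFE was lower and CP was higher in the DFX tumors, while HEPH (difference 0.947), LCN2 (0.830) and HAMP (−0.132) did not pass the test. With limma and an unadjusted threshold of 0.05, which follows the significance cutoff of the study, 3 of the 12 tested probes passed, 2 higher (both CP) and 1 lower (HFE). Over all 31807 tested probes 8.41% passed, of which 3.46% of the tested probes were higher and 4.95% lower in DFX tumors. The 3 probes are 25% of the members tested but stand for 2 genes. BMP6 and TF lacked signal in 1 or both groups, and over the other 10 tested probes (8 genes) the median difference was 0.332, 7 higher and 3 lower in DFX tumors. Over all tested probes, which were not limited to those with signal in both groups, it was −0.0245. Among the 7 higher probes, CP and CYBRD1 counted with 2 probes each. No member probe passed after Benjamini-Hochberg adjustment, with limma adjusted p-values from 0.504 to 0.993, and neither did any other probe, the lowest adjusted p on the array being 0.0675, although 2675 probes passed unadjusted. Under other settings at most 3 probes of the array passed after adjustment, with array quality weights.

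**Figure D1:**
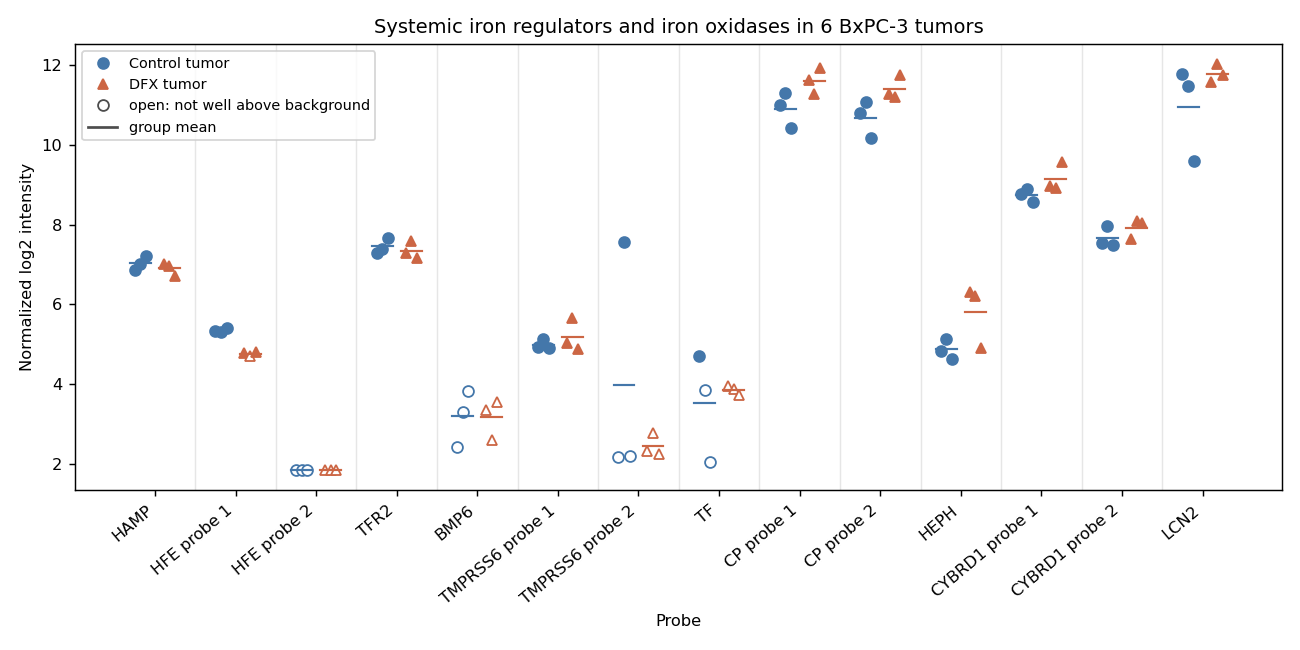
Normalized log2 intensity of the 14 probes in each of the 6 tumors (circles, 3 Control; triangles, 3 DFX; lines, group means; open symbols, not well above background on that array). The 3 DFX readings of HFE probe 1 sit below all 3 Control readings, and Control 3 lies apart from the other tumors at LCN2 with 9.60. Heights can be compared within a probe and not between probes.

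Among the 5 members that act on or encode hepcidin (HAMP, HFE, TFR2, BMP6 and TMPRSS6), HFE was the one that passed. HFE is the MHC class I-like protein whose loss causes the common form of hereditary hemochromatosis. Its first probe (chr6:26094484-26094543, +) read 5.34, 5.32 and 5.42 in Control 1, 2 and 3 and 4.77, 4.70 and 4.81 in DFX 1, 2 and 3. The 3 DFX tumors lay below the 3 Control tumors without overlap. Groups did not overlap at 3 of the 12 member probes (HFE lower, 1 CP and 1 CYBRD1 probe higher), against 15.5% of all probes, 6.34% higher and 9.15% lower. The group means were 5.36 ± 0.05 and 4.76 ± 0.06 (SD, n = 3 each), and HFE fell by 0.602 on the log2 scale (SE 0.0977, 95% confidence interval −0.841 to −0.364), or a level 1.52-fold lower (limma, unadjusted p = 0.000813, adjusted p = 0.504). In bulk tumor RNA, fewer cells of a type and less RNA per cell cannot be told apart.

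The HFE signal was dim. It was well above background on the 3 Control arrays and on 2 of the 3 DFX arrays, DFX 2 being the exception. Its size depended on the background correction, since the difference was −0.188 with normexp correction and −0.150 on the raw mean signal, with unadjusted limma p-values of 0.0340 and 0.0465. Leaving out any 1 tumor, the difference stayed between −0.629 and −0.572 and passed each time. In limma with the slide column as a block it was −0.625 with a limma unadjusted p of 0.0525. The second HFE probe (chr6:26087545-26087604, +) was above background on no array, at 1.85 to 1.86, and was not tested. Its 60 bases lie 112 to 53 bases before the HFE start listed by RefSeq, so it could read only transcripts that begin further upstream.

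HAMP itself had a measurable signal in every tumor, and the groups overlapped. Its probe (chr19:35775986-35776045, +) read 6.85, 7.02 and 7.22 in Control 1, 2 and 3 and 7.01, 6.97 and 6.72 in DFX 1, 2 and 3. Control 3 was the highest and DFX 3 the lowest of the 6 tumors. The means were 7.03 ± 0.18 and 6.90 ± 0.16 (SD, n = 3 each), a difference of −0.132 (SE 0.146, limma unadjusted p = 0.400), and the interval from −0.488 to 0.224 holds 0. Hepcidin is made mainly by hepatocytes, and of 9 hepatocyte markers, 5 (ALB, AMBP, APOH, F2 and TTR) were above background on no array. The others had signal, CPS1 and the brightest APOA1 probe on all 6 arrays, AHSG on 5 and SERPINC1 on 2. CPS1 passed as higher in DFX tumors (0.327, limma unadjusted p = 0.0214). The source of the HAMP signal was not tested.

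TFR2, the transferrin receptor of hepatocytes and erythroid precursors, also overlapped between groups. It read 7.30, 7.40 and 7.67 in Control tumors 1 to 3 and 7.29, 7.60 and 7.17 in DFX tumors 1 to 3. The spread within each group was larger than the difference of −0.105 (SE 0.164, interval −0.505 to 0.295, limma unadjusted p = 0.546).

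TMPRSS6, the membrane protease that cleaves the BMP co-receptor hemojuvelin, was read by probes in different parts of the gene. The probe at chr22:37461753-37461812 (-) was well above background on all 6 arrays, with 4.92, 5.13 and 4.91 in the Control group and 5.03, 5.65 and 4.87 in the DFX tumors. DFX 2 stood highest, and without it the difference of 0.197 (SE 0.220, interval −0.340 to 0.734, limma unadjusted p = 0.404) became −0.0346. The probe at chr22:37480066-37480125 (-) was well above background on 1 array, with 7.56 in Control 2 against 2.17 to 2.77 in the other 5 tumors, and was not tested. In Control 2 the other TMPRSS6 probe did not stand out.

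BMP6, the ligand that iron-loaded liver endothelium releases, and TF were near the limit of the arrays. The BMP6 probe (chr6:7881395-7881454, +) was well above background on no array, at 2.42 to 3.84 in Control and 2.60 to 3.55 in DFX tumors. TF was well above background in Control 1 alone, at 4.70, and read 3.86 and 2.06 in the other Control tumors, against 3.74 to 3.96 in the DFX tumors. Both probes entered the fit, where neither passed, and no difference is given for either gene because the readings do not separate from background.

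CP, the plasma multicopper ferroxidase, was higher in DFX tumors at both of its probes, which lie on the same transcript, 93 bases apart, and are therefore not separate evidence. At chr3:148890802-148890861 (-) the readings were 10.81, 11.07 and 10.16 in Control 1, 2 and 3 and 11.27, 11.19 and 11.75 in DFX 1, 2 and 3, with no overlap. This probe rose by 0.722 (SE 0.276, interval 0.0475 to 1.40), or 1.65-fold (limma, unadjusted p = 0.0396, adjusted p = 0.580).

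At the neighboring probe (chr3:148890649-148890708, -) CP read 11.01, 11.29 and 10.42 in the Control and 11.62, 11.28 and 11.92 in the DFX tumors. Here Control 2 and DFX 2 were level with each other, so the groups touched. The difference was 0.702 (SE 0.272, interval 0.0377 to 1.37), or 1.63-fold (limma, unadjusted p = 0.0414). Both probes were lowest in Control 3 and highest in DFX 3. Leaving out Control 3 lowered the differences to 0.459 and 0.463 (limma, unadjusted p = 0.0978 and 0.0843), and leaving out Control 1, DFX 1 or DFX 3 also ended both calls, with limma unadjusted p-values between 0.0620 and 0.122. The limma fit with slide column as a block gave 0.885 and 0.981 (limma, unadjusted p = 0.0845 and 0.0629). Within slide column 2 (DFX 2 minus Control 1) they were 0.27 and 0.38, and within column 4 (DFX 3 minus Control 3) 1.50 and 1.58. In each pair of values here the neighboring probe comes first.

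HEPH, the membrane-bound ferroxidase of enterocytes that hands iron from ferroportin to transferrin, was not alike in the 3 DFX tumors. It read 4.84, 5.13 and 4.63 in Control 1, 2 and 3 and 6.31, 6.22 and 4.91 in DFX 1, 2 and 3. DFX 1 and DFX 2 were above every Control tumor, and DFX 3 lay between Control 1 and Control 2. The difference was 0.947 (SE 0.397, interval −0.0224 to 1.92), or 1.93-fold, and missed the threshold (limma, unadjusted p = 0.0540, adjusted p = 0.599). Without DFX 3 it was 1.40 (limma, unadjusted p = 0.000611), which leaves out the DFX tumor nearest the Control range. On the raw mean signal it was 0.348 and with normexp 0.397 (limma, unadjusted p = 0.0523 and 0.0456), so the size depended on the background correction here too.

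LCN2, the siderophore-binding lipocalin also called NGAL, was bright in all tumors but one. It read 11.78, 11.48 and 9.60 in Control 1, 2 and 3 and 11.58, 12.02 and 11.75 in DFX 1, 2 and 3. Control 3 was the low tumor, and the other Control tumors lay beside the DFX tumors. The means were 10.95 ± 1.18 and 11.78 ± 0.22 (SD, n = 3 each), a difference of 0.830 (SE 0.573, interval −0.570 to 2.23, limma unadjusted p = 0.197). Without Control 3 it was 0.152 (limma, unadjusted p = 0.450). Neutrophils are a known source of LCN2, and of 7 neutrophil markers on the array, AZU1, CAMP, CEACAM8 and MPO were above background on no array. The others had signal, CSF3R on all 6 arrays (7.27 to 7.73), the brighter S100A12 probe on 5 and ELANE in DFX 1 alone (6.56). The summed linear intensity of the 7 markers was 206 to 570 in Control and 272 to 349 in DFX tumors. Any neutrophils in these xenografts would come from the mouse host, while the probes are human, so these readings do not measure the amount of neutrophils. The part of neutrophils in the LCN2 signal was not tested.

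CYBRD1, the ferric reductase known as duodenal cytochrome b, was read by 2 probes, and neither passed. The probe at chr2:172414039-172414098 (+) read 8.76, 8.90 and 8.56 in the Control and 8.96, 8.91 and 9.58 in the DFX tumors, so that the groups did not overlap, by a margin between Control 2 and DFX 2 far smaller than the spread within groups. The difference was 0.409 (SE 0.214, interval −0.114 to 0.933, limma unadjusted p = 0.105). The coding probe shown above read 7.53, 7.97 and 7.50 in the Control and 7.64, 8.10 and 8.03 in the DFX tumors, with overlap, and gave 0.255 (SE 0.192, interval −0.213 to 0.723, limma unadjusted p = 0.231).

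**Figure D2:**
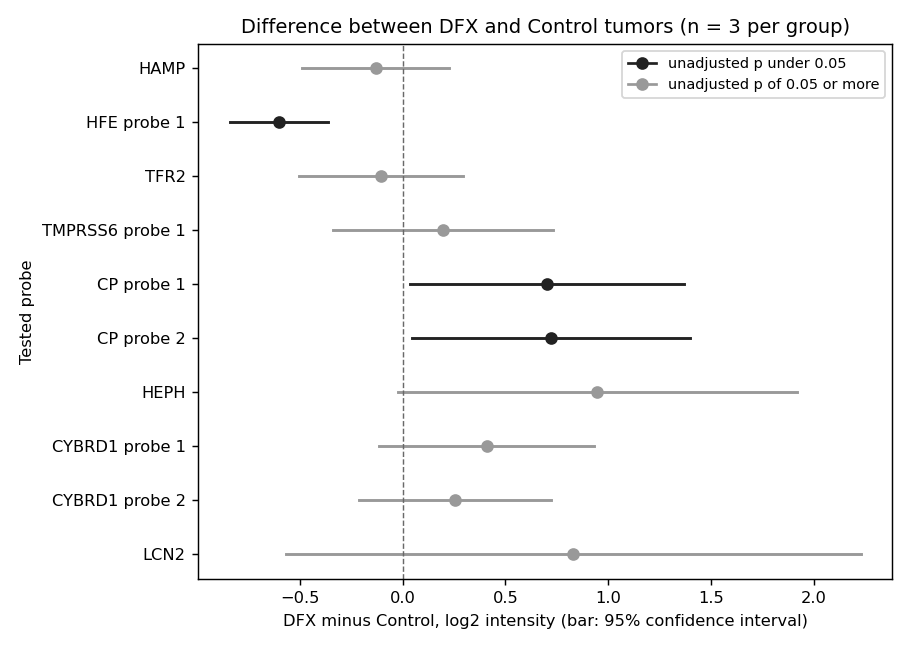
DFX minus Control difference in normalized log2 intensity for the 10 tested probes with signal well above background in both groups (points; bars, 95% confidence intervals from limma, n = 3 per group; black, unadjusted p under 0.05). The interval of HFE probe 1 lies below 0, those of both CP probes lie just above 0, and the intervals of the other 7 probes cross 0.

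Control 3 was the lowest tumor at 6 of the 10 probes with signal in both groups, which stand for 4 genes (CP, CYBRD1, HEPH and LCN2). Of the 27626 tested probes with such signal, 20.9% were lowest in Control 3. The intestinal epithelial markers (a list of 13 genes, added because earlier results of these data had shown them) were also lowest in Control 3. Their summed linear intensities were 2880, 3700 and 557 in Control 1, 2 and 3 and 8400, 7610 and 4780 in DFX 1, 2 and 3. The likeness ended there for some members. Among the DFX tumors the sum and HEPH were lowest in DFX 3, where both CP probes and the first CYBRD1 probe were highest. LGALS4 read 7.37 in Control 3 against 10.74 to 11.70 elsewhere, while SI was above background on no Control array. Of the 10 intestinal markers tested, 9 passed as higher in DFX tumors, where 3.68% of all tested genes did, a count that the choice of the list from these data had fixed in large part. CP, HEPH, CYBRD1 and LCN2 are also expressed in gut epithelium or liver, and the part of such a program in their differences was not tested. Markers of the carcinoma epithelium, KRT19, KRT7 and KRT18 among them, were well above background on all 6 arrays for 8 of 8 genes, with sums of 646000 to 660000 in Control and 671000 to 683000 in DFX tumors, and 3 of the 8 (37.5%) passed as higher.

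**Figure D3:**
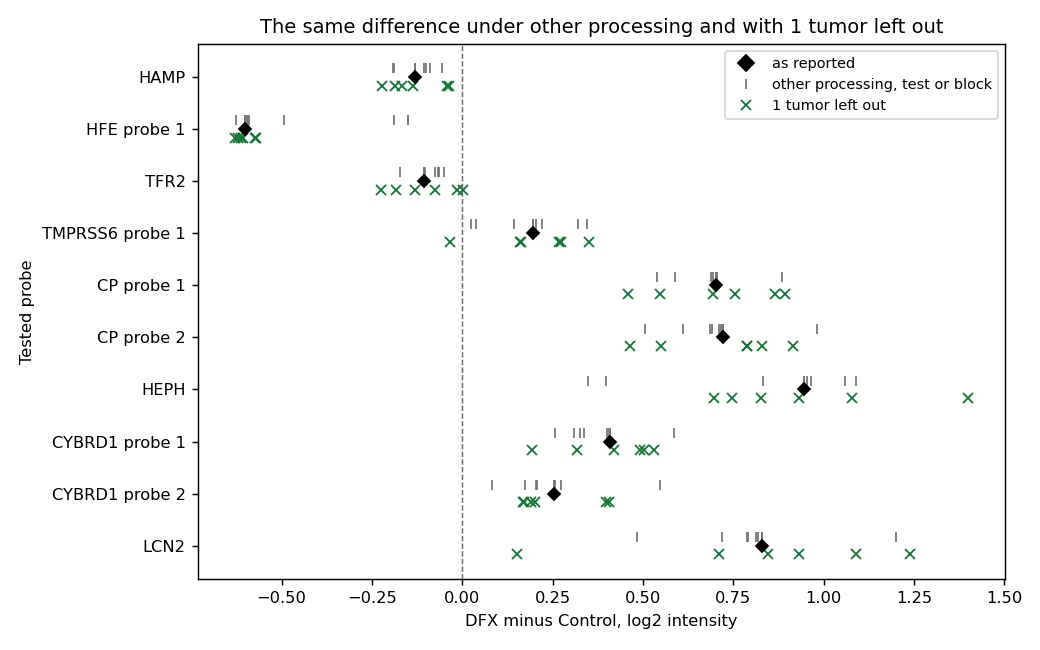
DFX minus Control difference in normalized log2 intensity for the same 10 probes as reported (diamonds), under other processing, tests or blocks (bars) and in the fits that leave out 1 tumor (crosses). HFE probe 1, both CP probes, HEPH, both CYBRD1 probes, LCN2 and HAMP keep their sign throughout, whereas TFR2 and TMPRSS6 probe 1 each cross 0 with 1 tumor left out.

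The genes that act on hepcidin transcription were described by a list of their own. Of 26 such genes 24 were tested, each by its brightest tested probe, and 3 passed (12.5%), 1 higher and 2 lower, where 7.98% of all 22718 tested genes passed (3.68% higher and 4.29% lower). The list median was −0.0426 against −0.0122 over all tested genes. SMAD6, an inhibitory SMAD that BMP signals induce, read 9.37, 9.74 and 9.51 in the Control and 10.16, 10.45 and 10.09 in the DFX tumors without overlap, and rose by 0.696 (SE 0.156, limma unadjusted p = 0.00424). At their brightest probes SMAD7 (−0.0483), ID1 (0.260) and ATOH8 (−0.0457) of the same list did not pass (limma, unadjusted p = 0.739, 0.163 and 0.818). A response to BMP signals was not tested.

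The brightest probe of STAT3, the IL-6 effector, read 8.50, 8.72 and 8.47 in the Control and 8.28, 8.30 and 8.24 in the DFX tumors. It fell by 0.290 (SE 0.111, limma unadjusted p = 0.0402), a call that was lost when any tumor other than Control 3 was left out. At another STAT3 probe, well above background on all 6 arrays, the groups overlapped and the difference was −0.106 (limma unadjusted p = 0.545). The tested probe of SMAD4, the shared partner of the receptor SMADs, was well above background only in Control 1 and Control 2. It read at least 1.16-fold lower in DFX tumors (limma, unadjusted p = 0.0244), a bound that holds for the background-subtracted signal. This call was lost in 7 of 18 alternatives, among them the fits without Control 1, Control 2, DFX 1 or DFX 3, the slide column block and the raw mean signal (limma, unadjusted p up to 0.135), and on the raw mean signal the fitted difference was −0.138 against −0.923. BxPC-3 is known to lack SMAD4, and what this dim probe read was not tested. SMAD4 is still counted among the 3 genes of the list that passed. Another SMAD4 probe was well above background in Control 3 alone and a further SMAD4 probe on no array, and neither entered the fit. HFE2 (hemojuvelin) and FGL1 were above background on no array.

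Genes of copper handling, some of which supply CP and HEPH with copper, and genes listed as other ferroxidases formed the next list. HEPHL1, of the latter, was not tested. Of 8 tested, 1 passed (12.5%, against 7.98% of all tested genes), ATP7A, the copper pump of the secretory pathway. Its brightest probe read 9.67, 9.45 and 9.22 in the Control and 9.79, 9.79 and 10.04 in the DFX tumors, a rise of 0.426 (SE 0.156, limma unadjusted p = 0.0338). That call was lost in 5 of the 6 fits with a tumor left out, being kept without Control 1. The other tested ATP7A probes, all well above background on all 6 arrays, did not pass. Their differences were 0.186, 0.206, −0.116 and −0.147 (limma, unadjusted p from 0.291 to 0.367). ATP7B, the pump that loads ceruloplasmin in liver, read 10.84, 9.78 and 7.95 in the Control and 10.13, 10.13 and 10.38 in the DFX tumors. Control 3 was again the low tumor, and the difference was 0.690 (SE 0.697, limma unadjusted p = 0.360). SLC31A1, the copper importer, differed by 0.252 at its brightest probe (SE 0.189, limma unadjusted p = 0.229) and by −0.203 at another (limma unadjusted p = 0.454). The list median was 0.0294.

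Of 11 reductases and iron-entry genes, 2 passed (18.2%, against 7.98% of all tested genes), 1 in each direction, with a list median of −0.019. CYB561D2, a relative of CYBRD1, read 9.5, 9.13 and 8.85 in the Control and 9.83, 9.79 and 9.62 in the DFX tumors and rose by 0.586 (SE 0.187, limma unadjusted p = 0.0200). Its call was lost without Control 2, DFX 1 or DFX 2 and with the slide column block, and the difference was 0.429 to 0.757 over all alternatives. TFRC, the transferrin receptor of dividing cells, read 11.94, 12.06 and 12.29 in the Control and 11.59, 11.70 and 11.78 in the DFX tumors and fell by 0.405 (SE 0.133, limma unadjusted p = 0.0223), a call lost without Control 3, DFX 1 or DFX 2 and with the slide column block, with differences of −0.517 to −0.307 over all alternatives. SLC40A1, which encodes ferroportin, read 10.97, 10.65 and 10.03 in the Control and 10.86, 10.83 and 10.96 in the DFX tumors, with overlap and a difference of 0.334 (SE 0.243, limma unadjusted p = 0.218).

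Lipocalin partners and secreted acute-phase proteins had 4 of 13 tested genes higher and none lower (30.8%, against the 3.68% of all tested genes above), and a list median of 0.264. The list was written with earlier results of these data known, so this share is not independent of them. Haptoglobin (HP), which binds free hemoglobin, read 10.38, 11.19 and 10.97 in the Control and 12.69, 12.98 and 12.51 in the DFX tumors. Every DFX tumor was above every Control tumor, and HP rose by 1.88 (SE 0.245), or 3.68-fold (limma, unadjusted p = 0.000244, adjusted p = 0.504). Its call held in every alternative run, between 1.65 and 2.07.

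SAA1, an acute-phase apolipoprotein, was well above background only in DFX 1 and DFX 3 and was at least 2.84-fold higher in DFX tumors (limma, unadjusted p = 0.0114). That bound holds for the background-subtracted signal, since the fitted difference of 1.87 was 0.527 with normexp and 0.476 on the raw mean signal. SERPINA1 (alpha-1-antitrypsin) rose by 0.495 (SE 0.154, limma unadjusted p = 0.0179), a call lost without Control 3, DFX 1 or DFX 2 and with the slide column block. A second, dimmer probe of complement C3 did not pass (0.758, limma unadjusted p = 0.203). At its brightest probe C3 rose by 0.975 (SE 0.384, limma unadjusted p = 0.0437), with overlap between the groups. Its call was lost in 10 of 20 alternatives, among them the fits without any 1 tumor other than Control 2, and its difference ranged from 0.661 to 1.47. Of the whole list of 18, FGB, FGG, HPX and LTF were above background on no array. The hepatocyte markers, several of which share liver origin with these proteins, summed to 597 to 662 in Control and 776 to 829 in DFX tumors. Most of that sum was CPS1, with means of 8.98 in Control and 9.31 in DFX tumors. APOA1 (0.621), AHSG (0.0198) and SERPINC1 (−0.333) did not pass, and the other 5 markers were above background on no array. The part of these markers in the result was not tested. Red blood cell markers summed to 6690 to 7960 in Control and 3040 to 3230 in DFX tumors. Of 4 tested, 2 passed as lower (50%, against 4.29% of all tested genes). Stromal and leukocyte markers summed to 13300 to 20300 and 11800 to 14500 and moved both ways, with 3 of 9 tested passing (33.3%, against 7.98% of all tested genes in either direction). By limma, PECAM1 rose by 1.27 (unadjusted p = 0.000475), LUM rose by 0.867 (unadjusted p = 0.0435) and DCN fell by 1.30 (unadjusted p = 0.00637). Stroma, leukocytes and blood cells of a xenograft come from the mouse host, while the probes are human. The readings of the red blood cell, stromal and leukocyte lists therefore do not measure the amount of such cells.

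**Figure D4:**
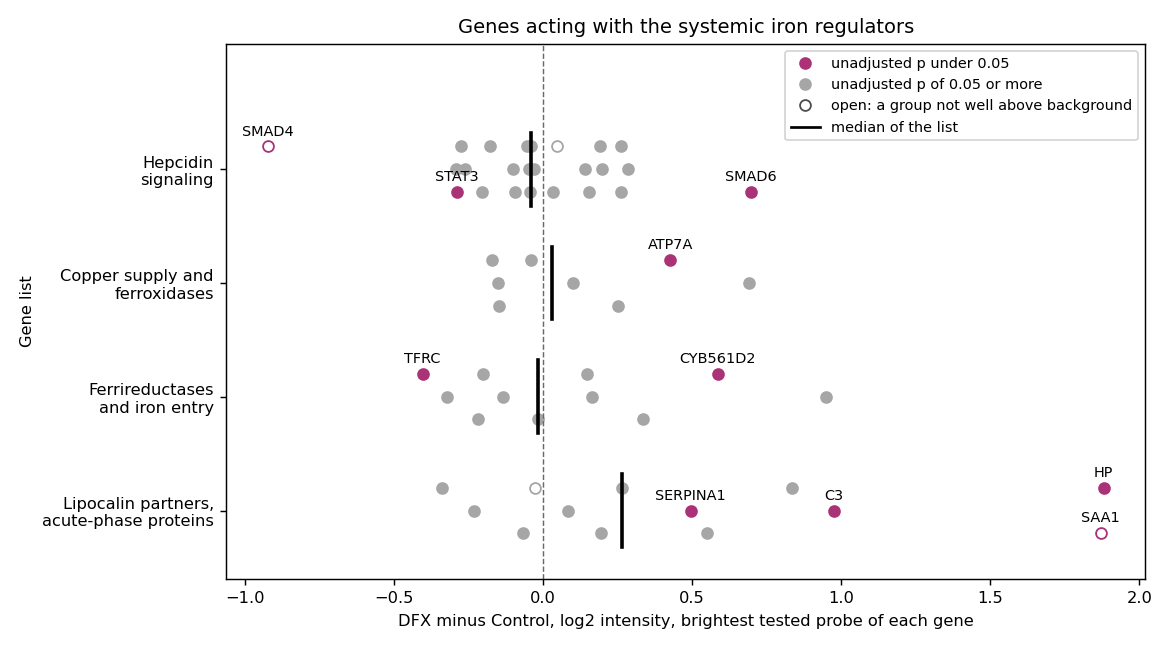
DFX minus Control difference in normalized log2 intensity for the brightest tested probe of each gene in 4 lists (points; colored and named where the unadjusted limma p is under 0.05; vertical lines, list medians). Medians lie near 0 for 3 lists and at 0.264 for lipocalin partners and acute-phase proteins, and open symbols, SMAD4 and SAA1 among them, are fitted differences of genes with at least 1 group well above background on no array.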

How the data were processed

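Gene expression was measured in 6 tumors, grouped from the sample labels. The authors deposited 1 Agilent Feature Extraction file per array (version 10.7.1.1 per the file headers, 9.5.1.1 in the submitters' processing notes) with linear intensities and a background p-value per spot, and a table of normalized intensities, used as an alternative. Here the background-subtracted signal of 58717 non-control spots was log2-transformed and quantile-normalized, 1398 spot values flagged as outliers were left out, spots were averaged per probe, and 31807 of 50599 probes were tested, those whose background p-value stayed under 0.05 on every array. The test was limma (3.58.1, lmFit then eBayes, R 4.3.3), adjusted by Benjamini-Hochberg across the 31807 probes. An exact permutation test of 3 against 3 tumors cannot go below 0.1 (two-sided). The number of arrays limits the precision. No spot was saturated, 50.3% to 56.5% of probes were well above background, and arrays correlated at 0.980 to 0.990.

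A gene of a list is represented by its brightest tested probe. At least N-fold sets the brighter group's mean against, on each dim array, the higher of the lowest well-above-background signal and the probe's own. The genes named are all members, list genes at an unadjusted p under 0.05, topped up to 3 per list by size of difference among genes well above background on all 6 arrays, and up to 3 markers per list by mean intensity, while SI, PECAM1 and LUM were named after their values were seen. The members and lists were chosen with earlier results of these data known. The procedure was tested on simulated data. Alternatives covered scaling, background, filter, test, blocks and each tumor left out.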

Additional observations from a re-analysis of the deposited data

How the results depend on the processing

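Of the member probes, 3 passed the unadjusted threshold as reported. The count was 4 with 75th percentile scaling, median scaling, normexp or the filter that asks for 1 whole group well above background, and 2 with array quality weights. HEPH passed in 8 of 20 alternatives. The count was 1 without a filter on dim probes and 1 in a linear model without moderation, and 0 with the slide column as a block. Only slide columns 2 and 4 held a tumor of each group, so that block leaves fewer tumors to inform the difference. With it 4.46% of all tested probes passed, against 8.41% as reported, so a call lost there cannot be laid to the gene or to the column. With a tumor left out it ranged from 1 to 3, being 1 without Control 1, Control 3 or DFX 1. The hepcidin list (3 genes) gave 8 with the Kruskal-Wallis H test, 1 with the slide column block and 1 to 3 with a tumor left out. The copper list (1 gene) gave 0 with median scaling, 2 with normexp, 2 on the raw mean signal, 2 without the filter, 2 without moderation, 3 with the Kruskal-Wallis H test, 0 with the slide column block, 0 when a gene's tested probes were averaged and 0 to 1 with a tumor left out. The reductase list (2 genes) gave 0 with the slide column block and 0 to 4 with a tumor left out, and the acute-phase list (4 genes) 2 to 5. Kruskal-Wallis calls every probe without overlap, 15.5% of all.

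Leaving out a tumor, TFR2 ranged from −0.226 to 0.00122 (without Control 3), TMPRSS6 from −0.0346 (without DFX 2) to 0.352 and ATP7B from −0.0974 (without Control 3) to 1.35. The cause was not tested. Median scaling moved the median of all probes to −0.103. HFE had no value under the filter that asks for signal well above background on all 6 arrays.

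Same-numbered tumors did not deviate together (correlations of 0.0158 to 0.0274), so the numbers pair nothing. With the replicate block, 2 member probes passed (HFE and HEPH) and 2419 of all probes against 2675, with 2 hepcidin, 0 copper, and 4 acute-phase genes. Among dim probes the background correction moved the difference by over 1.5 times for HFE, HEPH and TMPRSS6 (0.197 as reported, 0.0238 with normexp).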
